A study of Mus musculus with 8 samples.

Results

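Chondrogenic factors and cartilage matrix genes were followed in mouse tendon stem cells (TSCs) kept in a high fat, high glucose (HFHG) or a low glucose (LG) medium. The group was set by symbol, with earlier results of these data known, and held 9 of the 19301 genes in the expression table: the transcription factors Sox9, Sox5 and Sox6, the proteoglycan core Acan, the link protein Hapln1, the leucine-rich repeat protein Chad, and the matrilins Matn2, Matn3 and Matn4. The cells were primary cultures digested from mouse patellar tendon, and the number of animals behind each culture is not given in the sources used here. The 4 HFHG samples received glucose well above the LG level together with 300 µM palmitic acid, a saturated fatty acid, and the 4 LG samples received 5.5 mM glucose with the solvent DMSO, both for 4 days. The study used this pair of media to imitate the disordered glycolipid metabolism of diabetes, in which cartilage-like change and ossification of the tendon were under question. Expression was given as FPKM, the sequenced fragments of a gene divided by its length and by the depth of the library.

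SOX9 is the transcription factor that cartilage formation depends on, and SOX5 and SOX6 bind beside it to drive the genes of the cartilage matrix. Aggrecan, the product of Acan, carries chondroitin and keratan sulfate chains and is held on hyaluronan by the link protein of Hapln1, and these aggregates hold the water of cartilage. Matrilins are adaptor proteins that connect collagen fibrils and proteoglycans. Matn1 and Matn3 are known mainly from cartilage, whereas Matn2 and Matn4 occur in many connective tissues. Chondroadherin, the product of Chad, is a matrix protein through which chondrocytes attach to collagen.

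The libraries held 34308108 to 37362725 reads in all, and 16523 to 17015 genes had a value above 0 in each. The first principal component separated HFHG from LG with 81.0% of the variance, and LG replicate 4 stood apart from the other 3 LG libraries on the next component (4.18%). Tendon cell markers were abundant (summed FPKM 2155 to 2201 in HFHG and 1452 to 1476 in LG), as were macrophage markers (1709 to 1759 and 1870 to 1950), of which Lyz2 made up the most. Of 8 macrophage markers, 7 were expressed clearly enough to be tested. Of these, 6 were called lower in HFHG and none higher (limma adjusted p under 0.05), where 30.8% of all tested genes were called lower. The 13 chondrocyte markers summed to 1.71 to 4.33 FPKM in HFHG and 0.977 to 2.43 in LG, ranges that overlapped, and Matn1, Ucma and Snorc had at most 4 reads in any library. The 3 hypertrophic chondrocyte markers summed to 4.73 to 5.64 FPKM in HFHG and 3.90 to 4.18 in LG. Of them, Pth1r and Col10a1 were called higher, as were 34.0% of all tested genes. The groups of Col10a1 overlapped, and its call was lost under quantile normalization and without some of the libraries. The skeletal muscle markers summed to 0.741 to 1.68 FPKM in HFHG and 3.20 to 4.07 in LG. Neither this pair of ranges nor the hypertrophic pair overlapped. The sums for endothelial (1.19 to 1.27 and 0.922 to 1.14) and for Schwann or glial cells (4.72 to 5.29 and 3.88 to 4.54) were apart too, whereas those for osteoblasts and adipocytes overlapped. Among single tested genes, 59.2% had groups that did not overlap. Acta1 made up most of the muscle sum (mean 0.904 of 1.22 FPKM in HFHG and 3.38 of 3.65 in LG). Tek made up most of the endothelial sum (0.800 of 1.22 and 0.547 of 0.995). Of the other muscle markers, Pax7 and Des had higher means in HFHG, and Myod1 and Myh1 lower ones. Cdh5 and Kdr had lower means in HFHG, and Pecam1 and Tie1 higher ones. Pth1r made up most of the hypertrophic sum, and the mean of Ihh was lower in HFHG. The part of other cell types in the results was not tested, and in such bulk samples fewer cells of a type cannot be told apart from less RNA per cell.

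Only Matn2 and Matn4 were expressed clearly enough for the test across all genes. Matn4 rose 1.92-fold in HFHG, from a low level, and Matn2, the most abundant of the 9 genes, fell to 0.840 of its LG level. The other 7 genes lay below the filter on low values (4 or more libraries with 0.5 FPKM or above), and Chad, Matn3 and Acan were at the edge of detection. Sox9 had values that overlapped almost fully between the media, and Sox5 was higher in every HFHG library than in any LG library. Among all 11710 genes that passed the filter, limma with Benjamini-Hochberg adjustment called 64.8% at an adjusted p under 0.05, 34.0% higher and 30.8% lower in HFHG. A call was thus common, and 1 member in each direction does not set the group apart from the other genes.

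**Figure D1:**
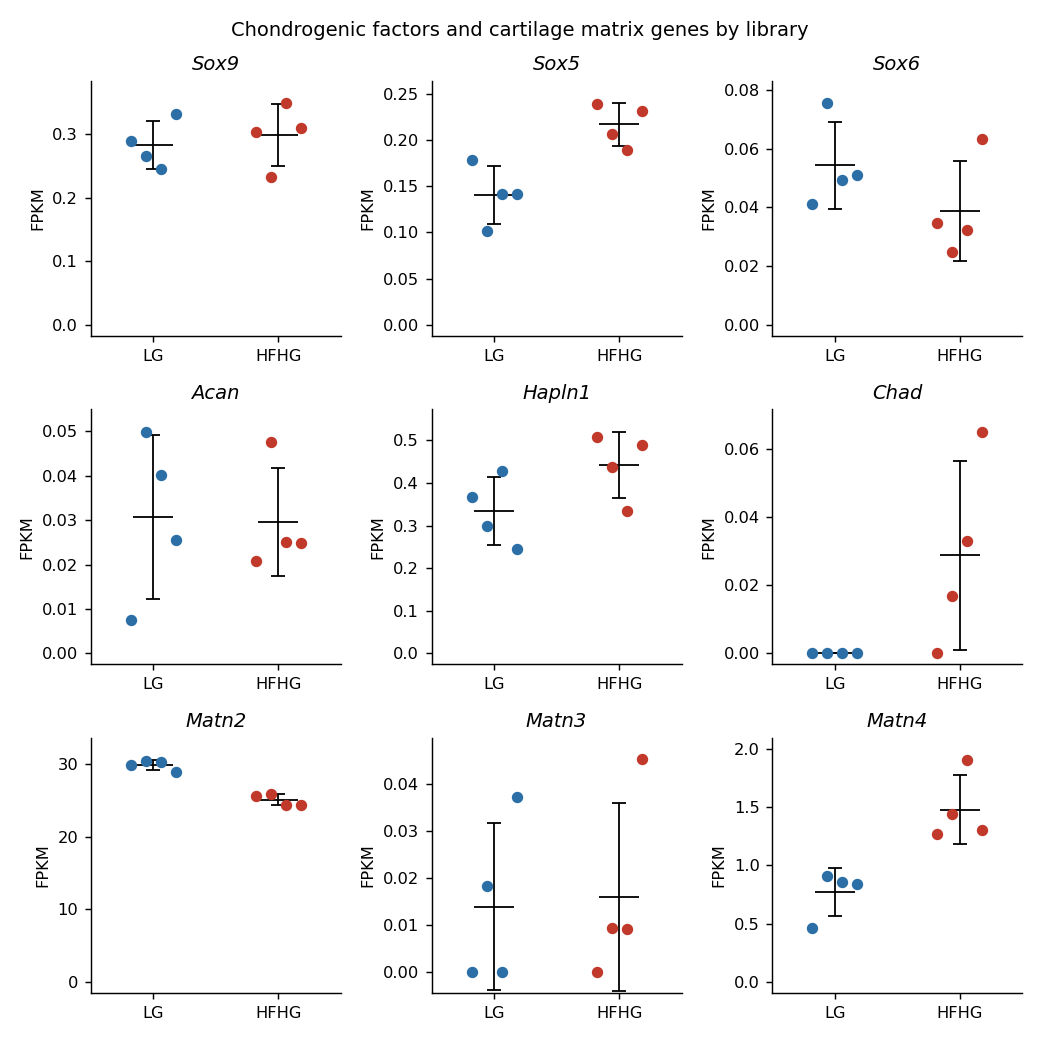
Each panel shows the FPKM of a member in the 4 LG (blue) and 4 HFHG (red) libraries, with the group mean as a horizontal line and the SD as a bar, each panel on its own linear scale. The groups are separate for Sox5, Matn2 and Matn4, and overlap for the other 6 genes.

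The order of the levels was nearly the same in the media. In HFHG, Matn2 came first at 25.1 FPKM, followed by Matn4 at 1.48, Hapln1 at 0.442, Sox9 at 0.298, Sox5 at 0.217, Sox6 at 0.0388, Acan at 0.0296, Chad at 0.0288 and Matn3 at 0.0160. The libraries of neighbouring genes overlapped from Hapln1 to Sox5 and again from Sox6 to Matn3, so that only the steps from Matn2 to Matn4, from Matn4 to Hapln1 and from Sox5 to Sox6 were larger than the spread. In LG, the step from Sox9 (0.283) to Sox5 (0.141) was also clear of overlap. The place of Sox5 depends on the gene length behind its FPKM, 12757 bases against 7243 of its longest transcript: scaled to longest transcripts, the means would be 0.381 FPKM for Sox5 and 0.299 for Sox9 in HFHG, and 0.248 and 0.284 in LG. The step from Sox5 to Sox6 depends on the lengths too. Sox6 scaled in this way would have 0.189 FPKM in HFHG, below Sox5, and 0.265 in LG, above it. Matn2 had 12.4% of all genes above it by mean FPKM over the 8 libraries, Matn4 54.4%, and the other members 62.0% to 85.8%.

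Sox9 (chr11:112782224-112787760 on GRCm38, plus strand) gave FPKM values of 0.303, 0.232, 0.348 and 0.310 in HFHG replicates 1 to 4. The LG values were 0.288, 0.266, 0.245 and 0.332. The groups overlapped over nearly their whole range, and each value rested on 34 to 52 reads. The means of 0.298 ± 0.0487 (SD, n = 4) and 0.283 ± 0.0373 differed by 0.05 on the log2(FPKM + 0.1) scale, with p = 0.686 by the exact two-sided permutation test, which cannot go below 0.0286 here. In the fit of recovered reads by limma-voom, chosen after seeing the data to reach genes with at least 10 reads in at least 4 libraries, the HFHG level was 1.05 times that of LG with a 95% interval of 0.723 to 1.53 (adjusted p = 0.828). A difference within these bounds was not detectable at this depth.

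Sox5 (chr6:143828425-144781977, minus strand), the partner that binds DNA as a dimer with SOX6 or with itself, had 0.239, 0.206, 0.189 and 0.232 FPKM in HFHG. The LG libraries had 0.178, 0.101, 0.142 and 0.141. The lowest HFHG value was thus above the highest LG value, as was the case in either direction for 9.21% of the genes below the filter. The means were 0.217 ± 0.0230 and 0.141 ± 0.0313 FPKM (SD, n = 4), with p = 0.0286 by the exact two-sided permutation test, the smallest it can give. The voom fit of 402 reads in HFHG and 253 in LG gave a 1.57-fold higher level (95% interval 1.17 to 2.11, adjusted p = 0.00870). It called 33.3% of its genes higher and 27.3% lower, and 31.7% in either direction of those below the FPKM filter. The call held in that fit without each library in turn (adjusted p 0.00578 to 0.0499), with the largest value when LG replicate 2, the lowest library, was left out. With limma on the FPKM of all 19301 genes, Sox5 was also called (adjusted p = 0.0414, where 22.2% of the genes were called higher), but not without HFHG replicate 1, 2 or 4 or LG replicate 2, 3 or 4 (adjusted p 0.0660 to 0.108). Antisense genes overlap Sox5, and whether reads were counted by strand is not given in the sources used here, so its reads and theirs cannot be told apart.

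Sox6 (chr7:115470872-116038796, minus strand) showed 0.0348, 0.0247, 0.0322 and 0.0634 FPKM in HFHG. In LG it showed 0.0413, 0.0755, 0.0493 and 0.0511. The first 3 HFHG libraries lay below every LG library, and HFHG replicate 4 lay above 3 of them. The difference of -0.16 on the log2(FPKM + 0.1) scale was within the spread (exact two-sided permutation p = 0.229). The voom estimate of -0.54 ± 0.259 (SE) was not called (adjusted p = 0.0740), and passed the threshold only without HFHG replicate 4 (0.0135) or LG replicate 1 (0.0390). Sox6 reads varied between replicates 11.3 times as much as counting alone gives in HFHG and 6.03 times in LG. Its FPKM was also computed on an unusual length of 42315 bases, against 14832 bases of all its annotated exons and 8668 of its longest transcript. Scaled to that transcript, the means would be 0.189 FPKM in HFHG and 0.265 in LG. With Sox5 scaled likewise (0.381 and 0.248), Sox6 would stay below Sox5 in HFHG but lie above it in LG. The place of Sox6 below Sox5 thus depends on the lengths used. The difference on the log2(FPKM + pseudocount) scale depends on this length as well, with -0.0215 at a pseudocount of 1 and -0.43 at 0.01, whereas the voom fit uses reads without the length. Antisense genes overlap Sox6 too.

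The 3 SOX factors of the cartilage programme therefore had different values: Sox9 close to equal means, Sox5 a higher level, and Sox6 a lower mean that did not pass the threshold. The plot of fold changes for the members with enough reads shows these estimates side by side. Differences between the changes of these genes were not tested.

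**Figure D2:**
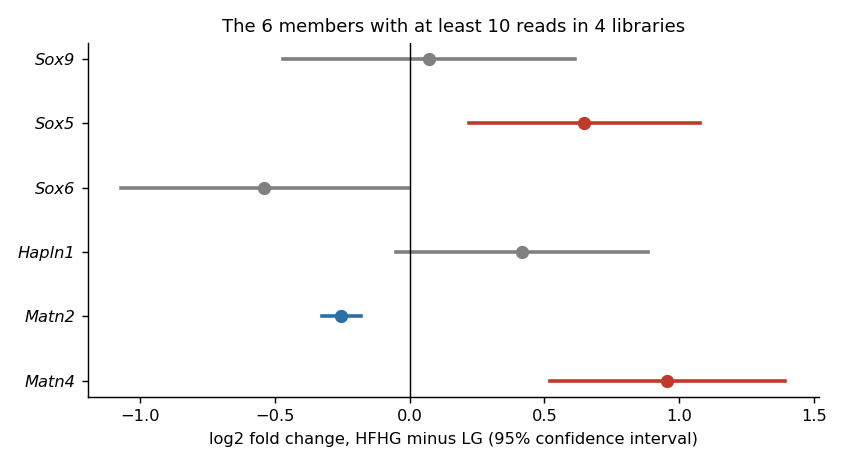
Points are the log2 fold changes (HFHG minus LG) of the 6 members with at least 10 reads in at least 4 libraries, from the voom fit of recovered reads, and lines are 95% intervals; red marks a gene called higher, blue a gene called lower and grey a gene not called. Matn4 (0.96) and Sox5 (0.65) lie to the right of 0 and Matn2 (-0.25) to the left with the narrowest interval.

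Acan (chr7:79053483-79115099, plus strand), whose product is the main proteoglycan of cartilage, was barely detected. The HFHG libraries held 6, 13, 7 and 7 reads (0.0208, 0.0476, 0.0252 and 0.0248 FPKM). The LG libraries held 2, 14, 11 and 7 reads (0.00755, 0.0499, 0.0402 and 0.0255 FPKM). The lowest and the highest library were both LG, and the groups overlapped. In sum, 33 reads stood against 34, a depth-corrected ratio of 0.946 with a 95% interval of 0.568 to 1.57 that covers counting error only (exact two-sided permutation p = 0.886). Among the lecticans, the family of hyaluronan-binding proteoglycans to which aggrecan belongs, Acan made up 0.234% of the summed FPKM in HFHG and 0.190% in LG. Nearly all of the rest was versican (Vcan), the lectican of loose connective tissue, at 98.7% and 99.4%. Vcan itself fell from 16.0 ± 1.18 to 12.5 ± 0.396 FPKM (-0.35 on the log2 scale, with an adjusted p of 7.99e-05 by limma).

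Hapln1 (chr13:89539796-89611652, plus strand) gave 0.509, 0.438, 0.334 and 0.488 FPKM in HFHG. The LG values were 0.367, 0.299, 0.427 and 0.245. The HFHG mean of 0.442 ± 0.0780 was above the LG mean of 0.335 ± 0.0793 (SD, n = 4), but HFHG replicate 3 lay below LG replicates 1 and 3. The difference of 0.33 on the log2(FPKM + 0.1) scale did not pass the exact two-sided permutation test (p = 0.114) or the voom fit (adjusted p = 0.115). Without HFHG replicate 3 the voom fit gave 0.54 with an adjusted p of 0.0478. The ratio in that fit with all libraries was 1.34, with a 95% interval of 0.967 to 1.84.

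The family of link proteins nevertheless had a different make-up in the media. Hapln4, a link protein known mainly from brain matrix, was the main member and fell from 5.22 ± 0.237 to 2.53 ± 0.256 FPKM (-1.02 on the log2 scale, with an adjusted p of 1.49e-07 by limma). With this fall, Hapln1 made up 14.4% ± 2.89 of the summed link protein FPKM in HFHG and 5.99% ± 1.55 in LG (SD, n = 4), and the libraries did not overlap. The sum itself was 3.09 ± 0.262 and 5.60 ± 0.214 FPKM. The larger share of Hapln1 therefore came with a smaller total.

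Chad (chr11:94565047-94569127, plus strand) was seen only in HFHG, with 0, 1, 2 and 4 reads in replicates 1 to 4 and 0 reads in every LG library. The 7 HFHG reads against none gave a ratio with a lower 95% counting limit of 1.41, which covers counting error only, and no fold change can be given. The exact two-sided permutation test over libraries gave p = 0.143, so the difference was not larger than the spread between replicates. The highest library had 0.0652 FPKM. Chad shares its locus with Acsf2 on the opposite strand, and a few reads of that gene could not be told apart from its own without strand.

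The only members above the filter, Matn4 and Matn2, were matrilins. Both were called, as were 64.8% of all tested genes. Matn4 (chr2:164389393-164405160, minus strand) gave 1.27, 1.44, 1.90 and 1.30 FPKM in HFHG. The LG libraries gave 0.465, 0.911, 0.856 and 0.841. Every HFHG library was above every LG library, which held for 59.2% of the genes above the filter when both directions are counted. The means were 1.48 ± 0.292 and 0.768 ± 0.204 FPKM (SD, n = 4), a log2 fold change of 0.88 ± 0.187 (SE) with an adjusted p of 0.00118 by limma. The lowest LG value, that of replicate 1 with 41 reads, was well below the other LG libraries, and without it the log2 fold change was 0.69, the lowest of the values with a library left out (up to 0.97), with the call kept in each. The value depends on the pseudocount because the level is low, with 0.49 at a pseudocount of 1 and 0.96 at 0.01. A more than 2-fold change with an unadjusted p under 0.05 was found for 5.33% of the tested genes and not for Matn4. Matn4 overlaps Rbpjl on the opposite strand.

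Matn2 (chr15:34306677-34436273, plus strand), a matrilin of many connective tissues, had 25.6, 25.9, 24.5 and 24.4 FPKM in HFHG. In LG it had 29.9, 30.5, 30.3 and 29.0. The replicates were tight, with 3150 to 3960 reads each, and the groups were clearly apart. The means were 25.1 ± 0.769 and 29.9 ± 0.687 FPKM (SD, n = 4), a log2 fold change of -0.25 ± 0.0335 (SE) with an adjusted p of 2.67e-05 by limma. The fall was small but was called in every alternative processing that was run, with log2 fold changes from -0.29 to -0.19. Matn2 overlaps 9430069I07Rik on the opposite strand.

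Matn3 (chr12:8947929-8972028, plus strand), a matrilin of growing cartilage, was close to absent in both media. HFHG replicates 1 to 4 held 0, 1, 1 and 5 reads, and the LG replicates 0, 2, 0 and 4. The sums of 7 and 6 reads gave a depth-corrected ratio of 1.14 with a 95% counting interval of 0.327 to 4.10 (exact two-sided permutation p = 0.914). At this depth a difference of several-fold in either direction would not have been detectable.

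Within the matrilin family, Matn2 made up 97.4% ± 0.677 of the summed FPKM in LG and 94.3% ± 1.14 in HFHG (SD, n = 4). Matn4 made up 2.50% ± 0.647 and 5.55% ± 1.12. The libraries of the groups did not overlap in either share. Matn1 and Matn3, the cartilage matrilins, stayed at or below 0.176% in every library. The summed level was 30.7 ± 0.745 FPKM in LG and 26.6 ± 0.689 in HFHG, so the rise of Matn4 was smaller in FPKM than the fall of Matn2.

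The genes with the pattern most like that of Matn4 over the 8 libraries, by Euclidean distance of gene-centred log2(FPKM + 0.1), were Tbc1d8 (distance 0.429), Klc3 (0.507) and Tmem243 (0.511). Those nearest to Matn2 were Ubap1 (0.0467), Qars (0.0593) and Evc2 (0.0713), a ciliary protein needed for normal cartilage and bone growth. The distances were larger for Matn4, whose replicates spread more.

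The wider cartilage programme was read from 106 further genes in 7 lists. Of these, 71 passed the filter, 46 were called higher in HFHG and 14 lower by limma at an adjusted p under 0.05, against 34.0% higher and 30.8% lower of all tested genes. The median log2 fold change of the 71 genes was 0.24, and that of all tested genes 0.02. The change was more than 2-fold with an unadjusted p under 0.05 for 7 genes that were higher and 2 that were lower. Over all tested genes this held for 5.33% in either direction. These lists were not fixed independently of these data, and their counts are a description. The plot of the lists shows the spread within each.

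**Figure D3:**
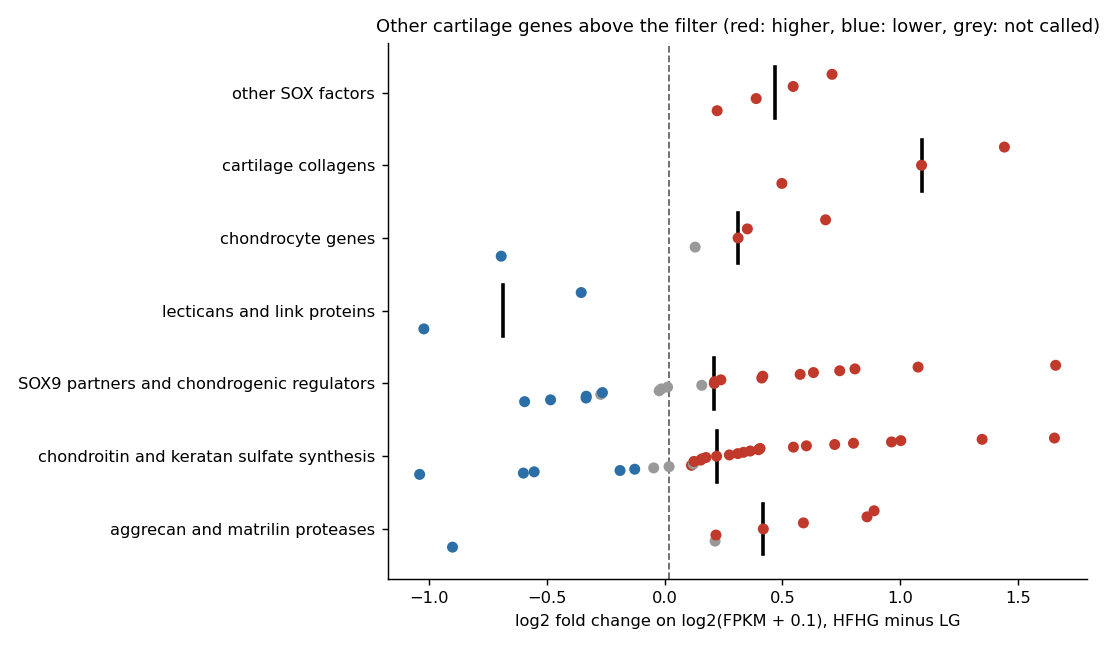
Each point is a gene above the filter, placed by its log2 fold change (HFHG minus LG, on log2(FPKM + 0.1)) in the row of its list; black bars are list medians and the dashed line is the median of all tested genes (0.02). The medians run from -0.69 for lecticans and link proteins (2 of 6 genes above the filter) to 1.09 for cartilage collagens (3 of 8 genes). The collagens Col2a1, Col9a1, Col9a2, Col9a3 and Col11a2 lay below the filter and are not shown.

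Among the other SOX factors, 4 of 10 passed the filter and were called higher, as were 34.0% of all tested genes. Sox13, which belongs with Sox5 and Sox6 to the SOXD group, rose from 0.828 to 1.43 FPKM (log2 fold change 0.71), Sox10, known from neural crest and glia, by 0.55, Sox12 by 0.39 and Sox4 by 0.22. Markers of Schwann or glial cells, among which Sox10 is counted, were higher in sum in every HFHG library than in any LG library, and their part in the Sox10 value was not tested. Sox8, which belongs with Sox9 and Sox10 to the SOXE group, was below the filter at 0.0968 FPKM in HFHG and 0.142 in LG.

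The cartilage collagens fell into 2 kinds of pattern. Col11a1, a chain of the collagen that starts fibrils, rose from 1.76 ± 0.249 to 3.84 ± 0.145 FPKM (SD, n = 4, log2 fold change 1.09, adjusted p = 4.29e-07), and its HFHG libraries were all alike at 3.72 to 4.05. Col27a1, a fibrillar collagen of cartilage, rose from 0.273 ± 0.0575 to 0.907 ± 0.109 FPKM (1.44, adjusted p = 3.64e-06 by limma). Col27a1 passed the filter only through its HFHG libraries. Col10a1, the collagen of hypertrophic chondrocytes, gave 1.07, 1.12, 0.683 and 0.892 FPKM in HFHG. It gave 0.428, 0.607, 0.802 and 0.727 in LG. Its groups overlapped, and its call (log2 fold change 0.50, adjusted p = 0.0340) was lost without HFHG replicate 1, 2 or 4 or LG replicate 1 or 2 (adjusted p 0.0521 to 0.101), under quantile normalization (0.153), without a filter on low values (0.0779) and with the replicate number as a block (0.0542).

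Collagen type II, the principal fibril of cartilage, did not follow the medium. Col2a1 gave 0.141, 0.139, 0.802 and 0.511 FPKM in HFHG replicates 1 to 4. It gave 0.327, 0.431, 0.374 and 0.0859 in LG. The highest libraries were HFHG 3 and 4 and the lowest was LG 4, with HFHG 1 and 2 below 3 of the LG libraries. Its reads varied between HFHG replicates 55.2 times as much as counting alone gives, and the voom adjusted p was 0.715. Col9a1 had its highest values in the same HFHG libraries (0.197 and 0.188 FPKM) and no read in LG replicate 4. Col11a2 was also highest in HFHG 3 and 4 (0.556 and 0.640) and lowest in LG 4 (0.156). Col9a2 ranged from 0.0206 to 0.496 FPKM in HFHG and from 0.0205 to 0.287 in LG, with HFHG 3 highest. Its lowest libraries were LG 4 and HFHG 2 with 2 reads each, and HFHG 4 (0.110) lay below LG 1 (0.287) and LG 3 (0.277).

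The summed FPKM of Col2a1, Col9a1, Col9a2, Col9a3 and Col11a2 was 0.971, 0.848, 2.73 and 1.98 in HFHG replicates 1 to 4. In LG it was 1.35, 1.11, 1.31 and 0.444. Sox9 ranked the HFHG libraries in the same order as this sum, but was highest among the LG libraries in replicate 4, where the sum was lowest. Acan and Hapln1 did not share the pattern: Acan was highest in LG 2 and HFHG 2, and Hapln1 was at its lowest HFHG value in replicate 3. Cnmd, also a low gene, did share it, with its highest value in HFHG 3 (0.416 FPKM) and its lowest in LG 4 (0.0383). Mia shared it in part, with its highest value in HFHG 3 (0.784) but its lowest in HFHG 1 (0.189). Of these collagens, only Col9a3 had groups that did not overlap, with 0.364 to 0.674 FPKM in HFHG and 0.174 to 0.283 in LG (voom log2 fold change 1.19, adjusted p = 0.00204). Groups did not overlap, in either direction, for 9.21% of the genes below the filter. The voom fit called 31.7% of the genes below the filter that entered it.

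**Figure D4:**
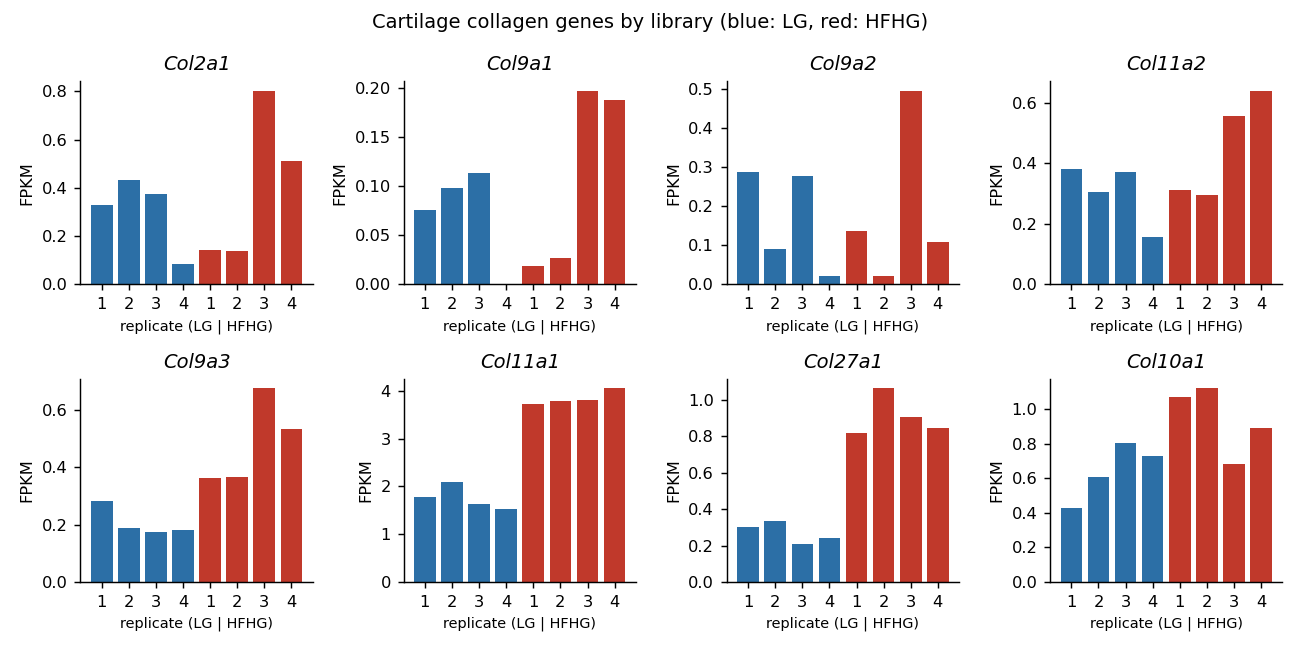
Bars are the FPKM of 8 cartilage collagen genes in LG replicates 1 to 4 (blue) and HFHG replicates 1 to 4 (red), each panel on its own linear scale from 0. Col11a1 and Col27a1 are higher in every HFHG library, whereas Col2a1, Col9a1 and Col11a2 are highest in HFHG 3 and 4 and lowest in LG 4.

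Of 16 chondrocyte genes, 5 passed the filter, 3 were called higher and 1 lower. The shares over all tested genes were 34.0% higher and 30.8% lower. Prg4, which encodes lubricin of the joint and tendon surface, fell from 146 ± 2.68 to 90.4 ± 3.80 FPKM (SD, n = 4, log2 fold change -0.69, adjusted p = 9.86e-10). Pth1r, the receptor for parathyroid hormone-related protein in growth cartilage, rose by 0.31, Vit by 0.68 and Ccn2, a matricellular growth factor, by 0.35. Comp, a matrix protein shared by cartilage and tendon, had means of 5.01 and 4.60 FPKM and was not called (log2 fold change 0.13, adjusted p = 0.254), except without LG replicate 4 (0.0178). The other 11 genes lay below the filter. Among them Fgfr3, a receptor that restrains growth cartilage, had 0.369 to 0.668 FPKM in HFHG and 0.292 to 0.517 in LG, Mia 0.189 to 0.784 and 0.198 to 0.514, and Cnmd, a cartilage inhibitor of vessel growth, 0.0962 to 0.416 and 0.0383 to 0.238. Ihh, the hedgehog ligand of prehypertrophic chondrocytes, stayed at or below 0.0740 FPKM in every library. The groups overlapped for each of these genes.

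The regulators around SOX9 were split. Of 21 that passed the filter, 11 were called higher and 5 lower, with a median log2 fold change of 0.21. Over all tested genes, 34.0% were called higher and 30.8% lower. Gdf6, a BMP family ligand of joints and tendons, rose from 3.67 ± 0.354 to 11.8 ± 0.433 FPKM (1.66, adjusted p = 4.11e-10), and Arid5b, a chromatin cofactor of SOX9, from 8.08 ± 0.756 to 17.1 ± 0.586 (1.08, adjusted p = 1.11e-08 by limma). Zeb1, a repressor of epithelial genes, rose by 0.81 and Foxc1 by 0.63. Among the genes called lower, Foxc2 fell by 0.48, Wwp2, a ubiquitin ligase whose gene hosts a cartilage microRNA, by 0.33, and Bmpr1b, a receptor for GDF5 and GDF6, by 0.26 on the log2 scale. Arid5a was also called lower (-0.33, adjusted p = 0.0325), but not without HFHG replicate 1, 3 or 4 or LG replicate 1 or 2 (adjusted p 0.0627 to 0.104), nor with rescaling to the same sum (0.0759) or without a filter on low values (0.0687). Runx2, the factor of hypertrophy and bone formation, had a small rise (0.21, adjusted p = 0.00568) that was lost under quantile normalization (0.0504), and Runx1 (adjusted p = 0.745) and Trps1 (0.912) were not called. Nkx3-2 and Barx1, early factors that promote and restrain cartilage, were below the filter at 0.304 against 0.275 and 0.233 against 0.319 FPKM. Gdf5, a joint-forming ligand, was low at 0.719 against 0.396 FPKM (0.74, adjusted p = 0.0101), and its call was lost under quantile normalization (0.0909). It reached 0.5 FPKM in 3 HFHG libraries and 1 LG library. Its groups overlapped, as HFHG replicate 2 (0.475) lay below LG replicate 4 (0.618). The exact two-sided permutation test gave p = 0.0571.

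Enzymes that build the chondroitin and keratan sulfate chains carried by aggrecan also serve versican, decorin and other proteoglycans. They were mostly more abundant than Acan. An exception in LG was the chondroitin sulfotransferase Chst3, below the filter at 0.00921 FPKM against 0.0308 for Acan. In HFHG, Chst3 had 0.0314 FPKM and Acan 0.0296. Of 29 that passed the filter, 20 were called higher and 5 lower, where 34.0% of all tested genes were called higher and 30.8% lower. The sulfotransferase Chst1, which acts on keratan sulfate, rose from 0.984 ± 0.188 to 3.27 ± 0.181 FPKM (1.65, adjusted p = 1.23e-07), Chst7 from 2.68 to 5.47 FPKM (adjusted p = 7.90e-07), and Slc35d1, a transporter of the sugar precursors, by 0.60. Chst11, which sulfates chondroitin at the 4 position and is needed for growth cartilage, fell from 17.3 ± 0.691 to 8.38 ± 0.309 FPKM (-1.04, adjusted p = 5.85e-10). Chst12, with the same activity, rose from 31.5 ± 1.82 to 54.9 ± 1.39 FPKM (0.80, adjusted p = 2.98e-09). The linkage enzymes B4galt7 and B3galt6 fell by 0.60 and 0.55 on the log2 scale, and Chpf, a chain polymerising factor, by 0.19. The genes of chain synthesis therefore did not move in a single direction.

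The proteases that cut aggrecan and matrilins included very abundant genes. Adamts5, the main aggrecanase of mouse cartilage, rose from 105 ± 3.01 to 194 ± 4.72 FPKM (SD, n = 4, log2 fold change 0.89, adjusted p = 2.93e-11), Adamts1 by 0.86 and Mmp3 by 0.59. Mmp13, the collagenase of cartilage, fell from 2652 ± 73.9 to 1421 ± 21.5 FPKM (-0.90, adjusted p = 5.89e-12). Timp3, an inhibitor of ADAMTS proteases, rose by 0.22, and Adamts4 was not called (adjusted p = 0.0825). Adamts5 thus stood far above Acan, the gene of its best known substrate, in FPKM.

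For comparison with the tendon programme, Scx, a factor of tendon cells that forms a common progenitor state with Sox9 in tendon attachments, gave 2.33, 2.88, 1.53 and 2.36 FPKM in HFHG and 1.46, 1.60, 1.76 and 0.983 in LG. The groups overlapped at HFHG replicate 3, and the log2 fold change of 0.61 had an adjusted p of 0.0138 by limma, while the exact two-sided permutation test gave p = 0.0857. Tnmd rose by 0.86 (adjusted p = 0.0164) and Mkx fell by 0.35 (adjusted p = 0.000749). Scx was more abundant than Sox9 in every library.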

How the data were processed

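mRNA of TSCs, 4 biological replicates with 25.5 mM glucose plus 300 µM palmitic acid (HFHG) and 4 with 5.5 mM glucose (LG), was sequenced with a stranded kit, and the groups were taken from the labels. The authors deposited FPKM for 19301 genes. The submitters' processing notes name HISAT2 2.1.0 and mm10, and the counting program, annotation and filters are not given in the sources used here. Whole reads were recovered from the deposited FPKM for 19301 genes (100% of values within 1e-07 reads). These gave the depth, the read numbers and the limits, and intervals over summed reads cover counting error only. Positions come from GENCODE on GRCm38, matched by symbol.

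limma 3.58.1 in R 4.3.3 was run with an intensity trend on log2(FPKM + 0.1), HFHG minus LG without covariates, for the 11710 genes with at least 0.5 FPKM in at least 4 libraries, with Benjamini-Hochberg adjustment over all of them. Fold changes on this scale understate those of low genes. Genes below the filter were compared by an exact two-sided permutation test over 70 arrangements. The limma-voom fit of 13817 genes with at least 10 reads in at least 4 libraries was added after seeing the data. The recovery and the limma fit on log2(FPKM + 0.1) were tested on simulated data, and the voom fit was not.

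The genes named were the members, the defining cartilage and tendon genes, up to 4 called genes in each direction per list with the largest change and a mean of at least 1 FPKM, and the 3 nearest genes of Matn4 and Matn2. Genes named beyond that rule (Sox8, Chst3, Adamts4, Lyz2 and the muscle and endothelial markers) were chosen after their values were seen. The members and the lists were chosen with earlier results of these data known. Alternatives were other pseudocounts, filters and scalings, voom, the replicate number as a block and each library left out.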

Additional observations from a re-analysis of the deposited data

Results flagged for a closer look

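A library far from the other 3 of its group was found in 13 of the 130 groups checked (65 named genes in each medium), where chance alone gives about 1 in 20 for normally distributed values. Among the members, Acan in HFHG replicate 2 had 0.0476 FPKM against 0.0208 to 0.0252 in the others, and Matn4 in LG replicate 1 had 0.465 against 0.841 to 0.911. Among the low cartilage genes, Col9a3 in LG replicate 1 had 0.283 FPKM, Fgfr3 in HFHG replicate 2 had 0.668, and Ucma and Snorc were each listed above 0 in a single library of each medium, at 0.0310 (HFHG replicate 4) and 0.0319 (LG replicate 3) FPKM for Ucma and at 0.182 (HFHG replicate 3) and 0.0459 (LG replicate 4) for Snorc. These values of Ucma and Snorc rested on 1 read each, or on 4 for Snorc in HFHG replicate 3. A group with a single library above 0 is always flagged, so the chance rate does not apply to it. Among the more abundant genes, Vit in LG replicate 3 had 1.87 FPKM against 1.15 to 1.25, Vcan in LG replicate 4 had 14.2 against 16.4 to 16.7, Runx2 in LG replicate 3 had 4.31 against 3.97 to 4.02, Chst1 in HFHG replicate 4 had 3.005 against 3.32 to 3.38, and Chst7 in LG replicate 2 had 2.26 against 2.76 to 2.85.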

How the results depend on the processing

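Matn2 and Matn4 kept their direction and their call in every alternative run. The number of members called higher went from 1 to 2 without a filter on low values and, in the voom fit added after seeing the data, with genes of at least 10 reads, since Sox5 joined Matn4 when low genes entered the fit. The other cartilage genes called stayed within 38 to 53 higher and 13 to 14 lower over all alternatives, and all tested genes called within 7177 to 8376. Rescaling to the same sum raised the share of calls that were higher from 52.5% to 60.9%, and median-ratio scaling lowered it to 46.7%. With each library left out, the members called were 1 higher and 1 lower each time, and the log2 fold change ran from -0.00518 (without HFHG replicate 3) to 0.140 for Sox9, from -0.0969 to 0.0628 for Acan and from -0.0893 to 0.118 for Matn3, 3 genes whose direction is not settled by these data. Acan also turned to 0.0533 with a pseudocount of 0.01 and to 0.00626 with rescaling to the same sum, and the cause was not tested. The replicate numbers did not pair the samples (correlations of same-numbered libraries -0.0736 to -0.00558), and with the replicate number as a block the calls were 1 higher and 1 lower among the members, 43 and 14 among the other cartilage genes and 7342 of all genes. Depth limits Acan, Chad and Matn3, with at most 14 reads in any library, and for these only large changes could be seen.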
